A study of Mus musculus with 9 samples.

Results

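Muscle in which *Mymk* was deleted from P6 (Δ2w) was compared with control muscle across all genes of an expression array, in the tibialis anterior (TA), a fast muscle of the lower leg, at P28. The comparison used 6 of the 9 arrays of the study, 3 Δ2w and 3 control mice with 1 array each, and every one of the 22206 gene rows among the 28846 rows deposited. No gene row was left out because of its values. The comparison and the gene lists used below were, however, chosen with earlier results of these data known. Genes were ranked by the difference in mean log2 signal and by how far the arrays of the 2 groups lay apart.

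The Δ2w mice (replicates 2, 3, and 4) carried *Pax7* CreER, a Cre that is expressed in satellite cells and that tamoxifen switches on, and received tamoxifen at P6. All 3 had 1 floxed and 1 LacZ allele of *Mymk* (8c LacZ/fl in the labels) and the mTmG/+ reporter. The control mice (replicates 1, 2, and 6) had mTmG/+ and no Cre in the labels, with LacZ/fl alleles in replicates 1 and 6 and fl/fl alleles in replicate 2. The labels record no tamoxifen for the controls, whereas the methods describe an injection of all mice. For nuclei per fiber the labels give 100 in Δ2w and 233 in control muscle, and the methods counted these in another muscle, the extensor digitorum longus. A name prefix that the sources do not explain is common to the 3 Δ2w mice and control replicates 1 and 6, but not to control replicate 2, the only mouse of the 6 with fl/fl alleles. The 3 Δ1w mice, which received tamoxifen at P0, entered the fit for the spread between mice and are described at the end. They carried *Pax7* CreER in the labels, with fl/fl alleles in replicates 1 and 8 and LacZ/fl alleles in replicate 5. The mTmG/+ reporter is recorded for Δ1w replicates 1 and 5 but not for replicate 8. For nuclei per fiber their labels give 55. None has the name prefix of the Δ2w mice, so prefix and day of tamoxifen cannot be told apart between the 2 models. That the mice of a group came from different litters is not stated, so p-values measure the spread between these mice only.

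*Mymk* encodes Myomaker, a membrane protein that muscle progenitors need in order to fuse. During postnatal growth, satellite cells, the stem cells that lie on the surface of each fiber, give rise to progenitors that fuse with the fiber and add nuclei to it. When fusion is blocked, the fiber goes on growing with the nuclei it already has. Because the Cre acts in satellite cells, nuclei that joined the fiber before tamoxifen keep a floxed copy of *Mymk* that is intact. In bulk muscle RNA, fewer cells of a type and less RNA per cell cannot be told apart.

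Promoter sequence is shown for 4 genes that rose in Δ2w muscle: the 3 that hold an MCAT element, a short motif known from the promoters of many muscle genes and bound by TEAD factors, and *Npr3*, which had the largest rise. Each stretch runs 5′ to 3′ on the strand of the gene, from 250 bases before the RefSeq start to 30 after it (GRCm38.p6), and capitals mark the MCAT element (CATTCC on either strand).
Mustn1: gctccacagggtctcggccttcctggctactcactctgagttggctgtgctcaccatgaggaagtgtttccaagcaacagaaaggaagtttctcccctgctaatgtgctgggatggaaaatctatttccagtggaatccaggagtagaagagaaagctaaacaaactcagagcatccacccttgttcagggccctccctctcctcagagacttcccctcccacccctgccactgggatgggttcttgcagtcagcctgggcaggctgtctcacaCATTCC
Hspa1l: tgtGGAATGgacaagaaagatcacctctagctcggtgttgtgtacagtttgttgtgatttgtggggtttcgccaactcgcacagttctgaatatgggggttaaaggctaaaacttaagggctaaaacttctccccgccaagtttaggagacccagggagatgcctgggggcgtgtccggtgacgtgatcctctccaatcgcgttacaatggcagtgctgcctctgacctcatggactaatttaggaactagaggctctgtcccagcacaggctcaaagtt
Ctnna3: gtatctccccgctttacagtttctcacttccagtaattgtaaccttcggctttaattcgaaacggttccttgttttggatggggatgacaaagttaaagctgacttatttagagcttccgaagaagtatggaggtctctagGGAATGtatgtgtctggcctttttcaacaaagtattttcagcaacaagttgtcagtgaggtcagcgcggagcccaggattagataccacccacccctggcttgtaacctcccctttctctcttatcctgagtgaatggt
Npr3: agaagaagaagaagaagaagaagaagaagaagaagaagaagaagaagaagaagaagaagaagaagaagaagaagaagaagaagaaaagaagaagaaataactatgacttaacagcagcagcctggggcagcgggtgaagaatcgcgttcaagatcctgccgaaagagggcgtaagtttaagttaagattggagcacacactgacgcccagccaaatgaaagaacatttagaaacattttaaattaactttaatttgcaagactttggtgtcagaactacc
The stretches lie at chr14:30879007-30879286 (plus strand), chr17:34972453-34972732 (plus strand), chr10:63457261-63457540 (plus strand, the start that holds the motif among 3 starts listed for the gene), and chr15:11907342-11907621 (minus strand). RefSeq windows of 300 bases were listed for 7 of the 9 genes with a symbol that passed the test, and the 7 all rose. MCAT stood in 3 of these 7 genes, in 10 of 43 genes (23.3%) at least 2-fold higher in Δ2w muscle with no overlap, in 3 of 20 (15%) at least 2-fold lower with no overlap, and in 15.3% of the 15691 genes of the array with a window. The share over all 32851 windows was 14.7%. In all, 10 motifs were searched on both strands: MCAT, the E-box (CANNTG), its MyoD type (CAGCTG, which is also an E-box), the AP-1 element (TGANTCA), the core promoter box written TATAAA, the cyclic AMP response element (TGACGTCA), a heat shock element (GAANNTTC or TTCNNGAA), the core of NFAT sites (GGAAA), the CArG box, and the MEF2 site. The heat shock element stood in 3 of the 7 called genes, in 11 of the 43 higher genes (25.6%), and in 15.4% of the genes of the array, so MCAT was not alone in its share. The MyoD type stood in 13 of the 43 higher genes (30.2%) and in 18% of the genes of the array. For the other motifs the shares in the higher genes lay near or below those of the array. The E-box stood in 3 of the 7 called genes, in 72.1% of the higher genes, and in 72.1% of the array. NFAT stood in 3 of the 7, in 60.5%, and in 64%, and AP-1 in 0 of the 7, in 9.3%, and in 8.35%. The TATAAA box stood in 11.6% of the higher genes and in 14.6% of the array. A match describes these letters and is not a measured site.

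Control replicate 6 stood apart from the other 5 mice before any group was compared. It had 48 rows more than 2-fold above every other array and 19 rows more than 4-fold above, whereas the other 5 arrays had at most 28 and 1. The rows included genes of bone, such as *Mmp13*, a collagenase of growing bone, at 11.08 against 4.71 to 5.33 in the others, and *Acp5*, the acid phosphatase of osteoclasts, at 11.59 against 5.72 to 6.28. Of 12 measured bone genes, a list written after this was seen, replicate 6 was highest in 11, with a mean of 7.93 against 5.10 to 5.34. Major urinary protein genes were also high, with *Mup22* at 14.86 against 8.32 to 10.82, and so was *Ucp1*, a gene of brown fat, at 7.24 against 3.01 to 3.60. Its signal was the lowest for *Ankrd2* (12.79 against 14.80 to 16.55) and *Csrp3* (10.54 against 12.56 to 14.86), 2 genes that respond to stretch of the fiber. Their part in the comparisons was not tested. Counts over all rows and list medians that move most without this array are given without it, or with their range when each mouse is left out. *Csrp3*, *Mup22*, and the bone genes were named after their values were seen.

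**Figure D1:**
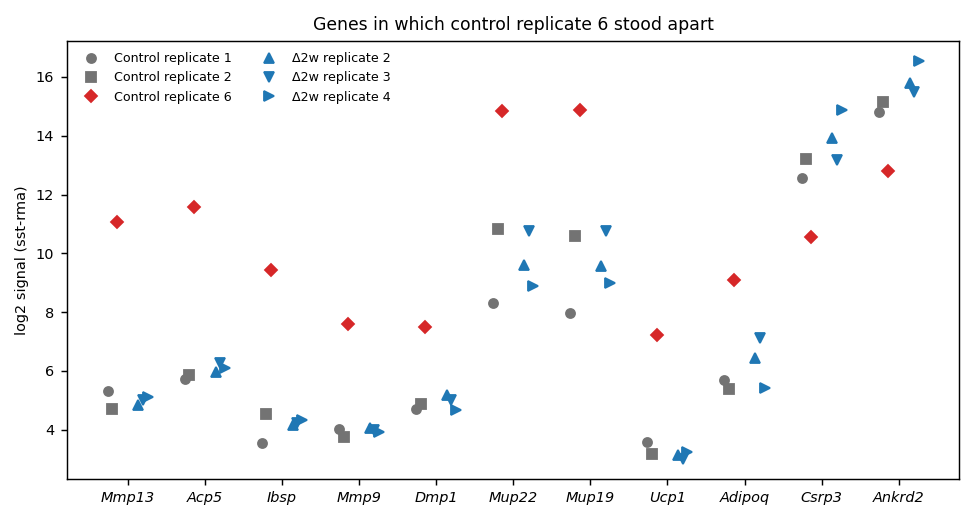
Log2 signal of 11 genes in each control (left) and Δ2w mouse (right of each gene), with control replicate 6 in red. Replicate 6 lies above the other 5 mice in the bone, urinary protein, and fat genes and below them in *Csrp3* and *Ankrd2*.

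The other array facts were even between the groups. Median signals ran from 6.37 to 6.42 on the log2 scale in the 6 mice. Y-linked genes were low in 1 mouse of each group, control replicate 6 (mean 3.76) and Δ2w replicate 4 (4.09), and at 9.38 to 9.80 in the others. Rows for negative control probes had medians of 5.98 to 6.25, and the level that only their highest 10% exceeded was 8.65 to 8.96, so dim genes cannot be told from background by signal alone. The 12 markers of skeletal muscle fibers had a mean of 18.47 to 18.61 in control and 18.59 to 18.62 in Δ2w muscle, so the defining markers of the labelled tissue were high in every mouse. Because the signals were normalized between arrays, a change shared by all genes cannot be seen in them.

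Across the 22206 rows, 10 (0.045%) passed limma at an adjusted p under 0.05 in Δ2w against control muscle, 8 higher (0.036%) and 2 lower (0.00901%). The genes that rose were *Npr3*, *Ctnna3*, *Itga4*, *Kcnh2*, *Uchl1*, *Hspa1l*, and *Mustn1*, with 1 row that has no gene symbol, and those that fell were *Mymk* and *Cdkn1c*. At an unadjusted p under 0.05 there were 1658 rows (7.47%), 883 higher (3.98%) and 775 lower (3.49%). In 3278 rows (14.8%) the Δ2w arrays all lay above (1669, 7.52%) or all lay below (1609, 7.25%) the control arrays. A difference of at least 2-fold together with no overlap was found in 86 rows (0.387%), 61 higher (0.275%) and 25 lower (0.113%), and 67 of these (0.302%) had a mean of at least 7 in the higher group. In all, 117 rows (0.527%) were at least 2-fold apart. Of these, 31 overlapped, and of the 18 lower ones control replicate 6 had the highest signal in 17. Without control replicate 6, 133 rows were at least 2-fold apart with no overlap, 84 of them higher.

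**Figure D2:**
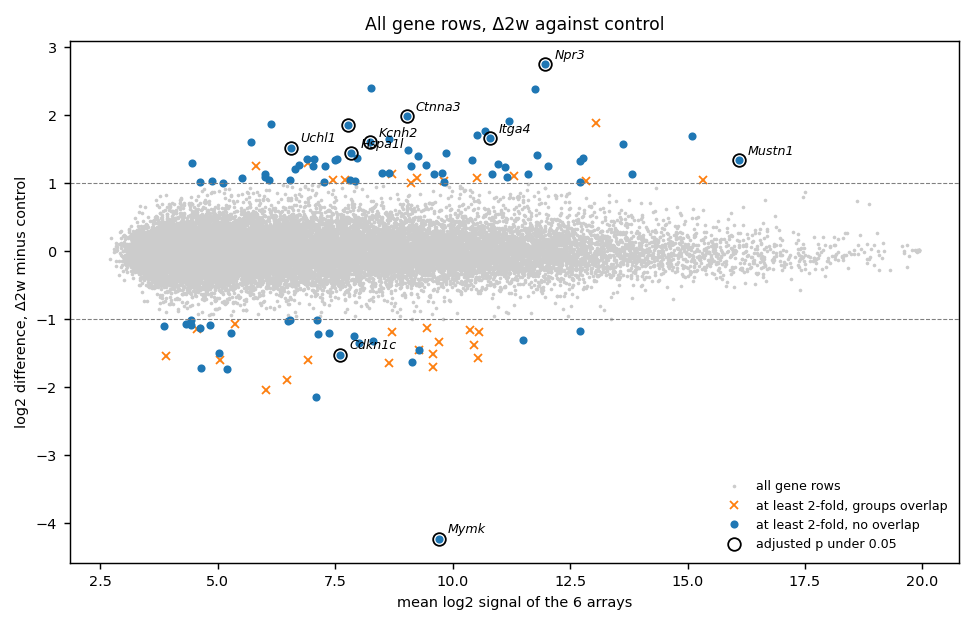
Log2 difference between Δ2w and control means against the mean log2 signal of the 6 arrays, 1 point per gene row, with dashed lines at 2-fold. Ringed points passed limma, blue points are at least 2-fold apart with no overlap, and orange crosses are at least 2-fold apart with overlap. *Mymk* is the lowest point and *Npr3* the highest.

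*Mymk*, the deleted gene, was at 11.82, 12.03, and 11.61 in control replicates 1, 2, and 6 and at 8.39, 7.67, and 6.70 in Δ2w replicates 2, 3, and 4. All 3 Δ2w mice lay far below the controls, and the spread among them was wider than among the controls. The gene fell by 4.23 on the log2 scale, or 18.8-fold (standard error 0.42, adjusted p = 0.00784 from limma). Its Δ2w signals lie within the range of the negative controls, so the size of the fall and the spread among these mice are uncertain. The gap between the nearest mice of the groups, −3.22, was the widest among the genes ranked. The fl/fl control, replicate 2, had the highest signal of the 6 mice. *Pax7*, the transcription factor that marks satellite cells and drives the Cre, was at 5.16, 5.13, and 4.64 in control and at 4.49, 4.43, and 4.36 in Δ2w muscle. These levels lie below the medians of the negative controls, and the difference of −0.55 did not pass (adjusted p = 0.549).

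*Cdkn1c* encodes p57, an imprinted inhibitor of the cell cycle that is expressed from the maternal copy. Its signal was 8.44, 8.24, and 8.43 in control and 6.86, 6.67, and 7.01 in Δ2w muscle. The groups lay 1.24 apart at their nearest mice. The gene fell by 1.53 on the log2 scale, or 2.88-fold (standard error 0.16, adjusted p = 0.00988). Both levels lie above the medians of the negative controls and within their range.

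*Npr3* encodes the natriuretic peptide clearance receptor, which takes up the peptides and also binds osteocrin, a peptide made by muscle and bone. Its signal was 11.04, 10.04, and 10.72 in control and 13.39, 13.12, and 13.54 in Δ2w muscle. The lowest Δ2w mouse was 2.07 above the highest control. The difference of 2.75, or 6.71-fold, was the largest rise (standard error 0.38, adjusted p = 0.0366). Of the 9 measured genes of natriuretic peptides and their receptors, *Npr3* alone passed. *Ostn*, which encodes osteocrin, was 0.65 higher with no overlap (unadjusted p = 0.0385, adjusted p = 0.651), and the signaling receptors *Npr1* and *Npr2*, named for their role after their values were seen, differed by −0.06 and 0.10.

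A pair of called genes belong to the contacts of cells with matrix or with other cells. *Itga4*, the α4 integrin that binds fibronectin and VCAM1, was at 10.06, 9.89, and 9.94 in control and at 11.93, 11.67, and 11.25 in Δ2w muscle, a rise of 1.66 (standard error 0.19, adjusted p = 0.0132). *Ctnna3*, αT-catenin, which links cadherins to actin in heart and other tissues, was at 8.14, 8.03, and 7.93 in control and at 9.67, 10.20, and 10.18 in Δ2w muscle, a rise of 1.99 (standard error 0.25, adjusted p = 0.0152). The controls of both lay close together (SD 0.09 and 0.10, n = 3), whereas the lowest Δ2w mouse was more than 2-fold above the highest control. The *Ctnna3* controls lie within the range of the negative controls, so the size of its rise is uncertain. Over the 31 measured genes for integrins, catenins, cadherins, and focal adhesions, these were the only called members, with 3 higher and 0 lower at an unadjusted p under 0.05, beside 3.98% and 3.49% of all rows. Their median difference was 0.21, beside −0.0044 over all rows, and ranged from 0.11 (without Δ2w replicate 4) to 0.26 when each mouse was left out.

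*Kcnh2* encodes the ERG potassium channel, best known from cardiac repolarization, and has been tied to muscle atrophy in mice. It was at 7.69, 7.17, and 7.43 in control and at 9.14, 9.23, and 8.73 in Δ2w muscle, a rise of 1.60 (standard error 0.20, adjusted p = 0.0152). *Uchl1*, a ubiquitin hydrolase abundant in neurons, rose by 1.52 (standard error 0.22, adjusted p = 0.0417), from 6.02, 5.49, and 5.88 to 7.0, 7.35, and 7.62. Its control signals lie below the medians of the negative controls on the same arrays, so the size of the rise is uncertain. *Hspa1l*, an Hsp70 family chaperone best known from testis, rose by 1.44 (standard error 0.17, adjusted p = 0.0152), from 7.33, 7.08, and 6.96 to 8.67, 8.61, and 8.41. Its neighbors on the chromosome are close Hsp70 paralogs, and whether its probes separate them is not stated in the labels or methods. Each of these genes had a gap of about 2-fold between the groups, though all 3 are dim.

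*Mustn1* was by far the brightest of the called genes. It encodes a small nuclear protein of muscle and tendon that is induced during growth and regeneration. Its signal was 15.37, 15.74, and 15.17 in control and 16.49, 16.78, and 17.01 in Δ2w muscle, a rise of 1.34 (standard error 0.19, adjusted p = 0.0417). The row without a symbol rose by 1.86 (adjusted p = 0.0411), from 7.19, 6.43, and 6.89 to 8.63, 8.55, and 8.93.

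**Figure D3:**
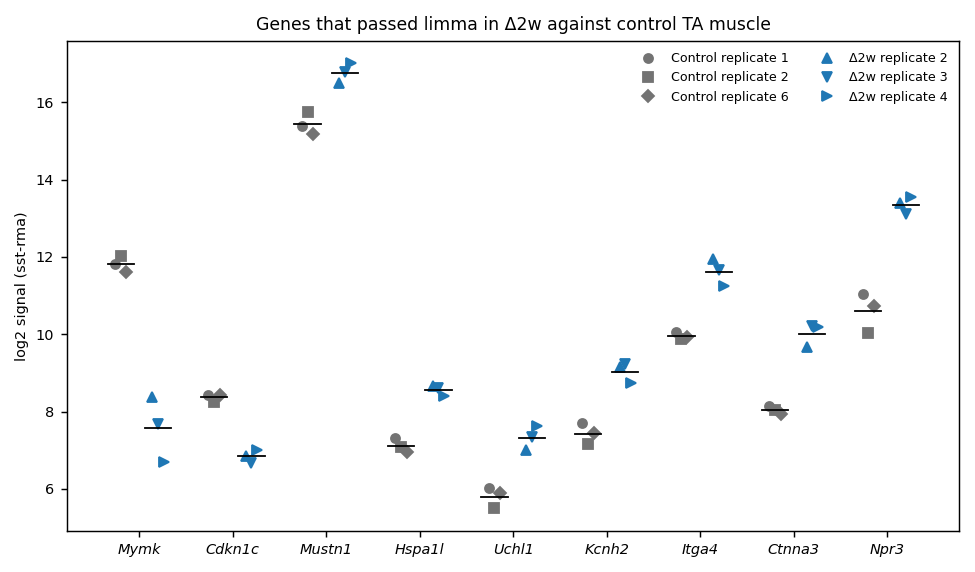
Log2 signal of the 9 genes with a symbol that passed limma, for each control (gray) and Δ2w (blue) mouse, with black lines at the group means. The groups do not overlap in any of the 9 genes, and the fall of *Mymk* and the rise of *Npr3* are the largest differences.

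When 1 of the 6 mice was left out, the number of rows that passed after adjustment ranged from 0 to 7. Leaving out control replicate 2 (1486 rows unadjusted), control replicate 6 (1613), or Δ2w replicate 3 (1401) left 0 in limma. Dropping Δ2w replicate 2 left 1, dropping Δ2w replicate 4 left 6, and dropping control replicate 1 left 7. Within the shared name prefix, which leaves out control replicate 2, 1 row passed.

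Just past the threshold, 13 rows had an adjusted p from 0.05 to 0.055, 8 higher and 5 lower, and all 13 separated the groups. Those with a symbol and a mean of at least 7 in the higher group are described here by value. *Tceal7*, which encodes a nuclear protein expressed in skeletal muscle, was at 11.47, 10.12, and 10.07 in control and at 12.85, 13.42, and 12.54 in Δ2w muscle, a difference of 2.38 (adjusted p = 0.054). *Cilp*, a matrix protein of cartilage and fibroblasts, was 1.77 higher (adjusted p = 0.0514), with controls at 9.61 to 9.98 and Δ2w mice at 11.44 to 11.66. *Fam171b*, a membrane protein, had the tightest controls, 7.80, 7.87, and 7.79, against 9.81, 9.31, and 9.31, a difference of 1.66 (adjusted p = 0.05, which is just above the threshold before rounding). The channel gene *Panx1*, pannexin 1, was 1.49 higher and the phosphatase gene *Dusp26* 1.41 higher (both adjusted p = 0.0514), *Mfhas1* was 1.37 higher (adjusted p = 0.054), and *Odc1*, the rate-limiting enzyme of polyamine synthesis, was at 11.09, 11.14, and 10.91 against 12.04, 12.36, and 12.13. *Odc1* was named after its values were seen. Control signals of *Fam171b*, *Panx1*, and *Mfhas1* lie within the range of the negative controls, so the sizes of their differences are uncertain.

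On the lower side, *Gpr50*, an orphan receptor of the melatonin receptor family, was at 7.89, 7.75, and 8.83 in control and at 6.36, 6.01, and 5.66 in Δ2w muscle, a difference of −2.14 (adjusted p = 0.054). That was the largest negative difference after *Mymk*, with a gap of 1.39 between the nearest mice. *Prox1*, a transcription factor of slow fibers and of satellite cells, was at 7.91, 7.59, and 7.69 against 6.46, 6.68, and 6.41 (−1.21, adjusted p = 0.054). *Plin3*, a lipid droplet protein, was at 8.25, 8.63, and 8.67 against 6.97, 7.46, and 7.38 (−1.25, adjusted p = 0.054). All 3 are dim, with Δ2w signals within the range of the negative controls.

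By size of the difference, the next genes on the higher side among those without overlap and with a mean of at least 7 were *Tnfrsf12a* (1.92), *Atp1b4* (1.72), *Ankrd2* (1.70), *Tspan9* (1.58), and *F830016B08Rik* (1.44). None of these passed, with adjusted p from 0.0893 to 0.499. *Tnfrsf12a*, the receptor for TWEAK, which rises in denervated muscle, was at 10.08, 10.21, and 10.42 in control and at 11.76, 11.55, and 13.17 in Δ2w muscle. Of the Δ2w mice, replicate 4 was the highest, and without it the difference was 1.42. *Ankrd2*, a titin-binding protein of the I-band that responds to stretch, was 1.70 higher, but 0.98 without control replicate 6, where it was lowest. *Atp1b4*, a muscle protein of the inner nuclear membrane, was at 9.88, 9.85, and 9.26 against 11.21, 10.98, and 11.95.

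**Figure D4:**
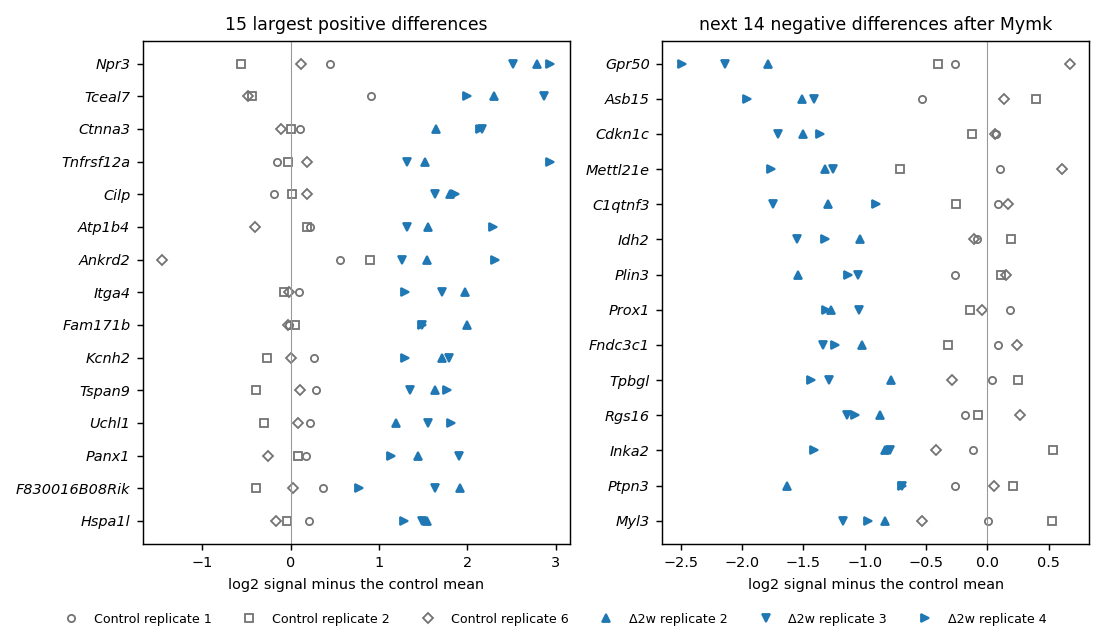
Log2 signal minus the control mean for each mouse, for the 15 largest positive differences (left) and the 14 largest negative ones after *Mymk* (right), among genes with 1 symbol, no overlap, and a mean of at least 7 in the higher group. The symbols of the controls scatter around 0, widest for *Ankrd2*, whose lowest point is control replicate 6.

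By the gap between the nearest mice, and among genes with a symbol, *Npr3* (2.07), *Ctnna3* (1.54), *Cilp* (1.46), *Fam171b* (1.44), and *Itga4* (1.20) led the higher side, followed by *Mfhas1* (1.15). *Rcan1*, an inhibitor of calcineurin, and *Map3k7cl* ranked high here because their controls lay close together, with gaps of 1.05 and 1.01 and differences of 1.32 and 1.25. On the lower side, among genes with a mean of at least 7 in the higher group, the order was *Mymk* (−3.22), *Gpr50* (−1.39), *Cdkn1c* (−1.24), *Idh2* (−0.93), and *Prox1* (−0.91). *Idh2*, the mitochondrial isocitrate dehydrogenase that makes NADPH, was at 12.06, 12.33, and 12.04 in control and at 11.11, 10.59, and 10.82 in Δ2w muscle, a difference of −1.31 (adjusted p = 0.0755). It was the brightest gene among the 5. *Lamtor2*, a subunit of the Ragulator complex that anchors mTORC1 at the lysosome, showed how tight a small difference can be, with controls at 10.25 to 10.30 and Δ2w mice at 9.50 to 9.61 (−0.72, adjusted p = 0.293).

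Another 4 genes on the lower side, chosen after their values were seen because they have a known place in muscle, are given by value, and 0 of them passed. *Asb15*, an ankyrin protein of ubiquitin ligases, was at 9.41, 10.34, and 10.08 against 8.43, 8.52, and 7.98 (−1.63, adjusted p = 0.316). *Mettl21e*, a methyltransferase of fast fibers, was at 10.10, 9.28, and 10.61 against 8.68, 8.74, and 8.23 (−1.45, adjusted p = 0.294). *Prkcq*, the protein kinase C isoform θ of muscle and T cells, was at 13.73, 14.02, and 13.85 against 12.80, 13.11, and 12.71 (−0.99, adjusted p = 0.347). *Myl3*, the slow and ventricular essential light chain, was at 10.30, 10.82, and 9.77 against 9.46, 9.12, and 9.32 (−0.99, adjusted p = 0.301). The 4 come from ranks that admit only genes without overlap, so their separation was set by that choice. The gaps between the nearest mice were −0.88, −0.54, −0.62, and −0.30.

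The Z-disc and mechanical stress list had 24 of 24 genes measured. Only *Mustn1* was called, and 10 were higher and 2 lower at an unadjusted p under 0.05 (beside 3.98% and 3.49% of all rows). In 12 the Δ2w mice all lay above the controls and in 3 all lay below (beside 7.52% and 7.25% of all rows). The median difference was 0.35, and 19 of the 24 were positive. *Myoz2*, calsarcin 1, which binds calcineurin at the Z-disc, was at 17.14, 17.09, and 16.96 in control and at 17.88, 17.84, and 18.09 in Δ2w muscle (0.87, adjusted p = 0.166). *Hspb7*, a small heat shock protein of muscle, differed by 0.73 (adjusted p = 0.543), and by 0.46 without control replicate 6. *Csrp3*, the muscle LIM protein, differed by 1.89 with overlap. Without control replicate 6, 6 were higher and 1 lower at an unadjusted p under 0.05, and the median was 0.32. Over the 6 fits that each left out 1 mouse the median ranged from 0.30 to 0.41.

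Some genes of the satellite cell had lower signals. Of 17 satellite cell genes, 0 were called, and 6 were lower and 0 higher at an unadjusted p under 0.05, beside 3.49% and 3.98% of all rows. *Fgfr4*, a growth factor receptor of satellite cells and regenerating fibers, was at 5.96, 5.55, and 6.69 against 4.46, 4.03, and 4.52, and *Calcr*, the calcitonin receptor of quiescent satellite cells, was at 5.30, 5.07, and 5.73 against 4.42, 4.61, and 4.31. These signals lie near or below the medians of the negative controls, so no size of difference is given for either gene. *Megf10*, a receptor of satellite cells, differed by −0.95 (adjusted p = 0.506) and *Met*, the receptor for hepatocyte growth factor, by −0.88 (adjusted p = 0.109). *Met* was the brightest of these, at 9.48, 9.67, and 9.72 against 8.63, 8.92, and 8.69, whereas 5 of the 17 genes had control means under 6. With 9 negative and 8 positive differences the list median was −0.30, and −0.18 without Δ2w replicate 3 or −0.11 without control replicate 6, when 8 genes were lower at an unadjusted p under 0.05.

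Of 16 measured myogenic regulators and fusion genes, only *Mymk* was called. *Myog*, myogenin, which drives the differentiation of progenitors, was at 9.73, 8.47, and 9.58 against 8.58, 8.65, and 7.89, and control replicate 2 lay among the Δ2w mice (−0.89, adjusted p = 0.57). The median of the list was −0.25, with 13 genes negative.

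Contractile genes of fast fibers differed little. The 16 genes of the list had a median difference of 0.01 and ranged from −0.12 to 0.26, with 0 past an unadjusted p under 0.05 in either direction, though a signal near the top of the array compresses differences. The 14 slow fiber genes had a median of −0.31 and 0 called. At an unadjusted p under 0.05, 2 were lower (*Myl3* and *Fhl2*) and 1 higher (*Myh7b*), beside 3.49% and 3.98% of all rows. The Δ2w mice did not move together in this list, with a median deviation from control of 0.38 in replicate 2 against −0.42 and −0.30 in replicates 3 and 4. The list median was 0.02 without Δ2w replicate 4, −0.07 without control replicate 2, and −0.18 without Δ2w replicate 3. *Myh3*, embryonic myosin, was 0.84 higher (adjusted p = 0.672), with controls at 6.85 to 7.24 and Δ2w mice at 7.35 to 8.18.

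Mitochondrial genes shared small negative differences. Of 39 respiratory chain genes, 32 were negative (beside 50.7% of all rows) and in 11 the Δ2w mice all lay below the controls (beside 7.25% of all rows), but 0 passed an unadjusted p under 0.05 and the median was −0.12. *Cox7a1*, the muscle isoform of a cytochrome oxidase subunit, was at 16.92, 16.88, and 16.69 against 16.59, 16.51, and 16.60. The 21 genes of the tricarboxylic acid cycle had a median of −0.15, with 7 below without overlap (beside 7.25% of all rows). At an unadjusted p under 0.05, 2 were lower (beside 3.49% of all rows), *Idh2* and *Sdha* (−0.53, adjusted p = 0.546). For 21 genes of glycolysis and glycogen the median was −0.13, with *Pygm*, muscle glycogen phosphorylase, at −0.28 (adjusted p = 0.704). When each mouse was left out, the 3 medians ranged from −0.14 to −0.10, from −0.16 to −0.13, and from −0.14 to −0.09. No gene of these lists was called.

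**Figure D5:**
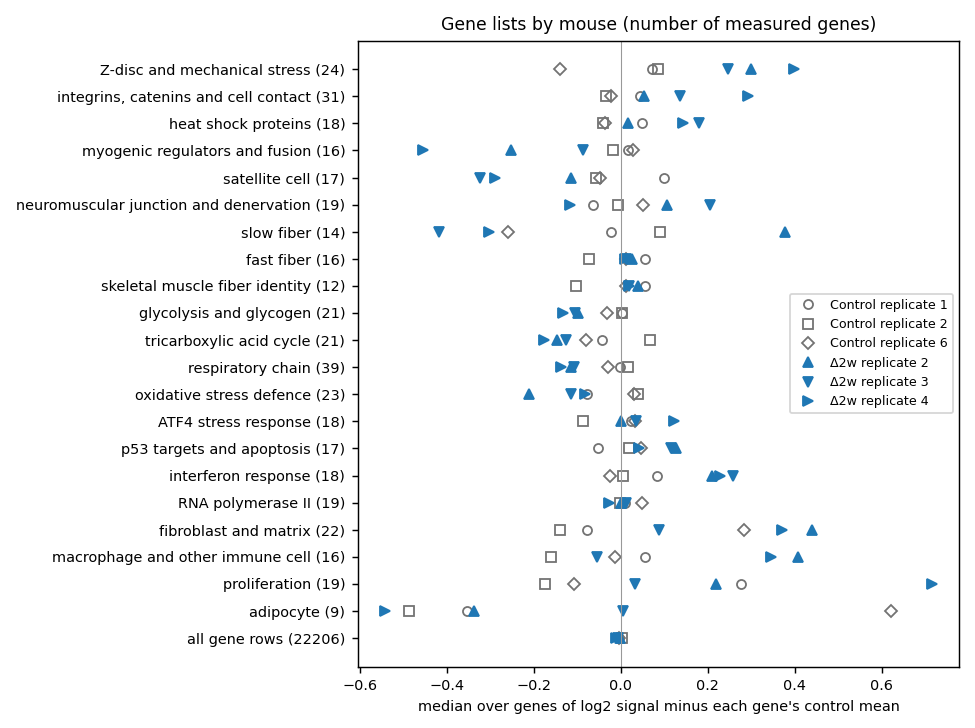
Median, over the measured genes of each list, of the log2 signal minus the control mean, for each control (gray) and Δ2w (blue) mouse, with the number of measured genes in parentheses and all gene rows at the bottom. In all 3 Δ2w mice, medians for the Z-disc, integrin and cell contact, and interferon lists lie above the controls. Those for the myogenic, satellite cell, glycolysis, tricarboxylic acid cycle, respiratory chain, and oxidative stress lists lie below, some by little. Medians for slow fiber and proliferation genes scatter.

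Imprinted growth genes did not move as one. Beside *Cdkn1c*, which fell, *Dlk1*, an imprinted ligand-like protein of muscle and fat progenitors, was at 8.71, 8.16, and 8.82 in control and at 10.30, 9.90, and 9.71 in Δ2w muscle (1.41, adjusted p = 0.0917), and *Ndn*, necdin, differed by 0.79 (adjusted p = 0.499). *Gpr50*, which the list holds although it is not known as an imprinted gene, had the list's most negative difference, −2.14, and did not pass. The median over 17 measured genes was 0.03, and ranged from −0.04 (without control replicate 2) to 0.20 (without control replicate 6).

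Stress and growth lists held few members past the test. Of 18 heat shock genes, *Hspa1l* alone was called, and *Hsp90aa1* and *Hspb8* differed by 0.59 and 0.61 (adjusted p = 0.57 and 0.607), while *Dnajb1* differed by −0.53 (adjusted p = 0.519). In the ATF4 list of 18 genes the median was 0.08 (0.00 to 0.09 when each mouse was left out), with 0 called. *Gpx1*, glutathione peroxidase, was 0.72 higher with no overlap (adjusted p = 0.266), and *Gclm*, which makes glutathione, was −0.47 (adjusted p = 0.597), with a median of −0.17 over 23 oxidative stress genes that was −0.09 without control replicate 6 and −0.10 without Δ2w replicate 2. Of 19 genes of the neuromuscular junction and denervation, 0 were called, and *Ache*, acetylcholinesterase, was 0.80 higher with no overlap (adjusted p = 0.324). Genes of RNA polymerase II (19 genes), ribosome biogenesis (21), nuclear positioning (17), and the myostatin and insulin-like growth factor axis (23) held 0 called members, and their medians lay between −0.11 and 0.17 in every fit that left out 1 mouse. In the interferon list of 18 genes, 3 were higher and 0 lower at an unadjusted p under 0.05 (beside 3.98% and 3.49% of all rows). Its median was 0.24 (0.19 to 0.31 when each mouse was left out), and 7 of the 18 had control means under 6.

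Markers of other cell types were compared as well. The fibroblast and matrix list (22 measured genes) had 4 higher and 0 lower at an unadjusted p under 0.05 (beside 3.98% and 3.49% of all rows) and 0 called. Its median difference was 0.23, with list means of 11.77 to 12.24 in control and 11.96 to 12.41 in Δ2w muscle. *Mmp2*, a gelatinase of fibroblasts, was at 12.08, 11.78, and 13.12 against 13.57, 12.93, and 13.57 (1.03, adjusted p = 0.532), and control replicate 6 was the high control. Without that mouse, 6 of the 22 genes were higher at an unadjusted p under 0.05 and the median was 0.40. Immune genes (16 measured, median 0.28, but 0.14 without Δ2w replicate 2 and 0.16 without control replicate 2) had *Csf1r*, the receptor of macrophages, 0.63 higher (adjusted p = 0.595), and list means of 7.54 to 7.69 in control and 7.73 to 8.01 in Δ2w muscle. Endothelial (13 genes), pericyte and smooth muscle (11), Schwann cell (7), tendon (12), and adipocyte (9) lists held 0 called genes. Leaving out 1 mouse turned the sign of several of their medians. Without control replicate 1 the endothelial median of 0.11 was −0.10 (and 0.25 without control replicate 2), the pericyte median of 0.09 was −0.13 (and 0.21 without control replicate 6), and the tendon median of 0.09 was −0.06 (as it was without Δ2w replicate 4, and 0.22 without Δ2w replicate 3). The Schwann cell median of 0.15 was 0.04 and the adipocyte median of −0.25 was 0.07 without control replicate 6. Proliferation genes had a median of 0.23 that was 0.07 without Δ2w replicate 4 and 0.45 without control replicate 1. The part of these cells in the differences above was not tested.

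The Δ1w mice share the controls, so the values of both models are given side by side. In Δ1w against control muscle 312 rows (1.41%) were called. *Mymk* was at 8.99, 7.49, and 7.94 in the Δ1w mice, *Cdkn1c* at 6.14, 6.17, and 6.36, *Npr3* at 12.72, 14.46, and 13.88, *Itga4* at 11.31, 11.23, and 11.07, and *Mustn1* at 16.63, 16.61, and 16.69. The remaining genes called with a symbol in Δ2w muscle had Δ1w means of 10.28 (*Ctnna3*), 8.90 (*Kcnh2*), 7.69 (*Uchl1*), and 8.75 (*Hspa1l*). For these 9 genes the direct test of Δ1w against Δ2w gave differences from −0.62 to 0.55 with adjusted p from 0.354 to 0.909, which does not show that the models act alike. The standard errors of these differences were 0.16 to 0.42. Over all rows, 1 (0.0045%) differed between the models, *Rgcc*, a cell cycle regulator, at 11.10, 11.51, and 11.50 in Δ1w and 8.99, 9.35, and 9.84 in Δ2w muscle, with controls at 8.75, 8.56, and 8.67. Slow fiber genes had a median difference from control of 1.18 in Δ1w and −0.31 in Δ2w muscle, and of the genes named in that list none passed the direct test. *Fam171b* stood 3.17 above control in Δ1w and 1.66 in Δ2w muscle, a difference of 1.52 that did not pass (adjusted p = 0.106).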

How the data were processed

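RNA from flash-frozen TA muscle of 9 mice at P28 was labelled with a 3′ IVT kit and hybridized to Clariom S Mouse arrays, 1 array per mouse. The deposited values are log2 signals per transcript cluster that the authors made by sst-rma, which adjusts background, normalizes between arrays, and summarizes probes. Affymetrix Expression Console is named in the processing notes of the submitters, and no source used here gives the genome build of the probes. Of 28846 rows, 22206 gene rows were kept and 6640 control rows left out. A single symbol was found for 19572 rows, and for the 55 symbols with several rows the row with the highest mean signal was used. All value columns were matched to samples.

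A single linear model of all 9 arrays was fitted by limma 3.58.1 in R 4.3.3 (lmFit and eBayes, 6 residual and 5.80 prior degrees of freedom), with Benjamini-Hochberg adjustment over the 22206 rows and a call at an adjusted p under 0.05. All tests are two-sided. No overlap means that every Δ2w signal lay above, or every one below, every control signal. Fold changes are differences of mean log2 signals, and signals of different genes are not compared as amounts. On simulated data with 200 changed rows the fit recovered 47.8% of changes of 1 and 94% of changes of 2 on the log2 scale. There were 7.4 false calls on average over 10 simulations. The simulated rows were independent and normal, no array stood apart, and more rows were changed than passed in the real arrays. These shares therefore need not hold for the real comparison. Named genes were the called ones, the 15 largest rises and falls and the 15 widest gaps on each side (no overlap, 1 symbol, mean of at least 7 in the higher group), up to 4 genes of smallest p per gene list, *Mymk*, *Pax7*, and members that define a list. The comparison, the gene lists, and this rule were chosen with earlier results of these data known. Figures and summaries used Python 3.11.15, pandas 2.3.3, and matplotlib 3.10.9. Alternatives were each mouse left out, another normalization, a signal filter, other variance models, covariates, and an unpaired t-test. The methods name that test in their general statistics, and the Transcriptome Analysis Console for differences between arrays.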

Additional observations from a re-analysis of the deposited data

Results flagged for a closer look

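*Rgcc* was the only row whose difference from control differed between the 2 deletion models in limma, with a test of that difference itself. Its signal was 1.98 higher on the log2 scale in Δ1w than in Δ2w muscle (adjusted p = 0.028), 2.71 above control in Δ1w (adjusted p = 0.000237), and 0.73 above control in Δ2w muscle (adjusted p = 0.506). All 3 Δ1w mice lay above all 3 Δ2w mice.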

How the results depend on the processing

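The number of rows called in Δ2w against control muscle, 10, was 8 after another quantile normalization and 7 with the Y-linked mean as covariate. It was 18 after median centering, 20 with the circadian clock index as covariate, 20 when the name prefix was a random block, 21 with the 2 groups alone, 23 among rows with a mean of at least 6, 32 with array weights, 40 with a trended and robust variance, 5 with *Mymk* alleles as covariate, and 1 within the shared name prefix. An unpaired t-test, which the methods name in general but not for the arrays, gave 1681 rows unadjusted and 0 after adjustment. An unadjusted p under 0.05 in limma with a 2-fold difference gave 96. Leaving out 1 array gave 0 to 21. Leaving out both arrays with low Y-linked signal, an alternative chosen after seeing the data, gave 0 (1274 unadjusted). The causes were not tested.

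Rows without overlap, 3278, numbered 5267 to 5877 when 1 array was left out, 5657 within the shared prefix, and 2124 among rows with a mean of at least 6, where fewer arrays or rows enter by construction. Median centering gave 1537 above and 1766 below, against 1669 and 1609. Rows at least 2-fold apart without overlap, 86, numbered 101 to 183 when 1 array was left out. With 3 mice per group, differences of 2-fold are often missed, and dim signals limit the rest. No paired analysis was run, because the labels record no pairing of control and Δ2w mice.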
